A study of Mus musculus with 7 samples.

Results

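The genes described here are the chemokines and chemokine receptors of mouse pancreatic islets. Chosen by symbol, they comprised 34 ligand genes (Ccl, Cxcl, Cx3cl1 and Xcl1) and 17 receptor genes (Ccr, Cxcr, Cx3cr1 and Xcr1), which is 51 of the 22180 genes tested. All 51 were measured by a probe set that carries a single gene symbol, and no filter on low values was applied. Islets came from mice labelled Gata6 KO, which carry floxed Gata6 alleles (Gata6 flox/flox) with the Pdx1-Cre transgene (4 arrays), and from control mice with the same floxed alleles and no Cre (3 arrays), named KO-labelled arrays and control arrays below. The mice were 2 months old, and 3 of them gave the pooled islets of an array. Pdx1-Cre is active in the pancreatic epithelium, from which endocrine, acinar and ductal cells descend. Since the controls lack Cre, an effect of Cre and one of Gata6 cannot be told apart. Another 6 symbols of the same families, among them Ccl19, Ccl27b and the Ccl21 genes, were on probe sets shared by several genes only and were not analysed here.

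Chemokines are small secreted or membrane-tethered proteins that direct the migration of leukocytes. They are classed by the spacing of their first conserved cysteines (CC, CXC, CX3C and XC), and they act through G protein-coupled receptors named after the same classes. Inflammatory chemokines are made by many cell types after stimulation, often through the transcription factor NF-kappaB or through interferons, while homeostatic chemokines such as Cxcl12 and Cxcl13 place cells in tissues and lymphoid organs. In islets, chemokines are known from studies of diabetes, where they can be made by endocrine, stromal and resident immune cells and draw monocytes, neutrophils and lymphocytes.

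Some facts of the arrays bear on every value below. Gata6 itself measured 5.41, 5.35, 5.34 and 5.01 on the log2 scale on the KO-labelled arrays, against 4.60, 4.80 and 4.83 on the control arrays, which is no loss of signal (limma, adjusted p = 0.0622). Where its probes lie relative to the deleted part is not known here, so this signal need not check the deletion, and directions are those of the labels. The hormone genes that define islets were present in both groups. Gcg averaged 9.55 ± 1.80 (SD, n = 4) on the KO-labelled arrays and 11.98 ± 0.15 (SD, n = 3) on the control arrays. By the test named at the end of this paragraph, 15 of 16 islet endocrine markers were lower on the KO-labelled arrays, against 7.36% of all genes. Of 17 acinar markers 11 were higher, against 17.4% of all genes. With each array centred on its own median, 16 islet endocrine markers were lower, against 12.5% of all genes. Then 9 acinar markers were higher, against 8.43% of all genes, and 1 was lower. The acinar enzyme gene Ctrb1 was near the top of the scale on all 7 arrays, at 13.45 ± 0.07 (SD, n = 4) on the KO-labelled arrays and 13.40 ± 0.03 (SD, n = 3) on the control arrays. Values are log2 signals of bulk tissue, so a change in the number of cells of a type and a change in RNA per cell cannot be told apart. Over all genes the median difference between groups was 0.17 (log2), which has been subtracted from every difference below. SEs and adjusted p belong to the unsubtracted difference (limma, Benjamini-Hochberg over all 22180 genes). A gene is called changed at an adjusted p under 0.05.

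Chemokine genes were higher, where they changed, on the KO-labelled arrays. Of the 51 genes 17 rose, which is 33.3%, and 0 fell. Over all genes 17.4% rose and 7.36% fell. At an unadjusted p under 0.05, 25 members were higher and 1 was lower, against 26.4% of all genes higher and 11% lower at that threshold. The median difference of the 51 genes was 0.33, against 0 for all genes by construction, and 40 of them lay above the median of all genes. Ligands accounted for 13 of the rises (38.2% of 34 genes, median 0.46) and receptors for 4 (23.5% of 17 genes, median 0.13). Without control array 1 or without control array 2 the count was 11 in each case, and all 11 were among the 17. Over all genes 2246 and 2395 rose in these fits, against 3853 on all 7 arrays.

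The count depended on scaling. When each array was centred on its own median, 8.43% of all genes rose and 12.5% fell, so that 40.3% of the changed genes were higher, against 70.2% without centring. Then 10 members rose: Ccl2, Ccl7, Ccl17, Cxcl1, Cxcl2, Cxcl12, Cxcl14, Xcl1, Ccr2 and Xcr1. The calls of Ccl1, Ccl6, Ccl8, Ccl11, Cxcl11, Ccr6 and Cxcr4 were lost, and Cx3cl1 and Ccr10 were called lower. Every KO-labelled array lay above every control array for 22 of the 51 members (43.1%), as it did for 24.4% of all genes. None of the members lay entirely below, as 9.96% of all genes did.

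**Figure D1:**
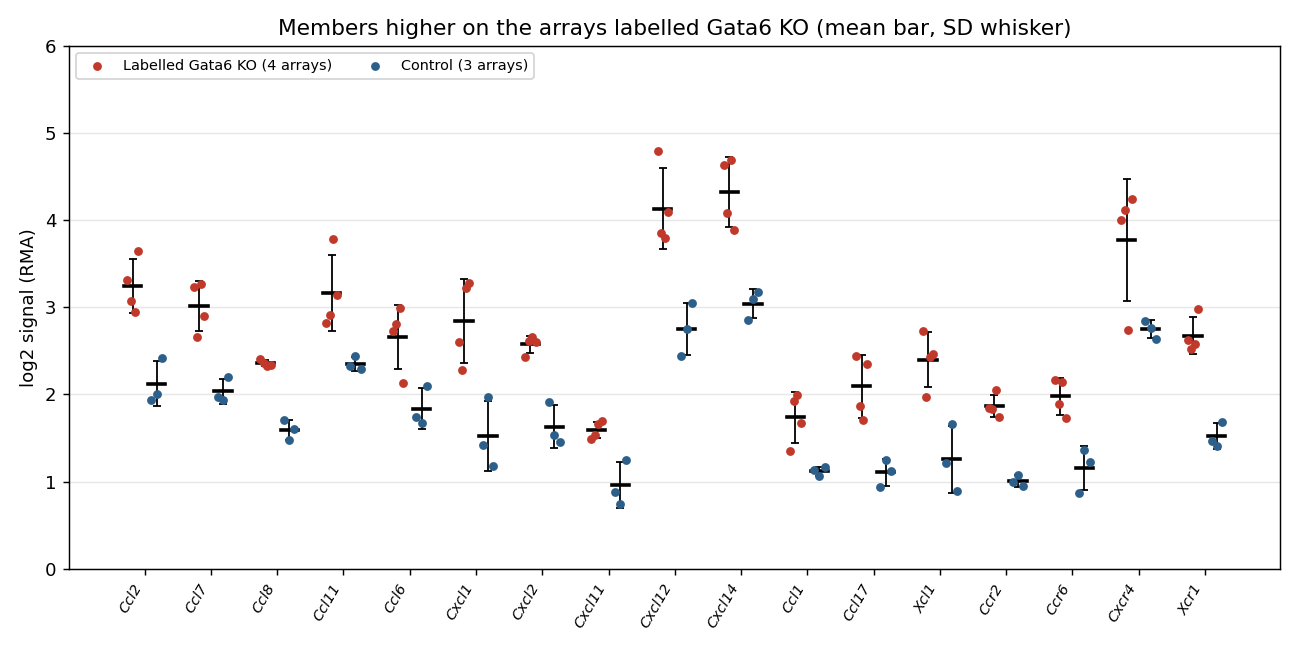
Log2 signals of the 17 members that rose, with 1 point per array, a bar at the group mean and whiskers of 1 SD. The KO-labelled arrays (red, left) lie above the control arrays (blue, right) for each of these genes except Cxcr4, where 1 KO-labelled array, at 2.74, lies among the controls.

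Most of these signals were at the low end of the scale. The mean over the 7 arrays was under 3 for 43 of the 51 genes, and no member reached 4. Among the 24 members with a mean under 2, 6 rose (25%), against 10.3% of all genes in that range. Among the 19 with a mean from 2 to 3, 8 rose (42.1%, against 20.6%), and among the 8 with a mean from 3 to 5, 3 rose (37.5%, against 20.3%). The share of members called was thus above that of all genes in each range of signal.

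**Figure D2:**
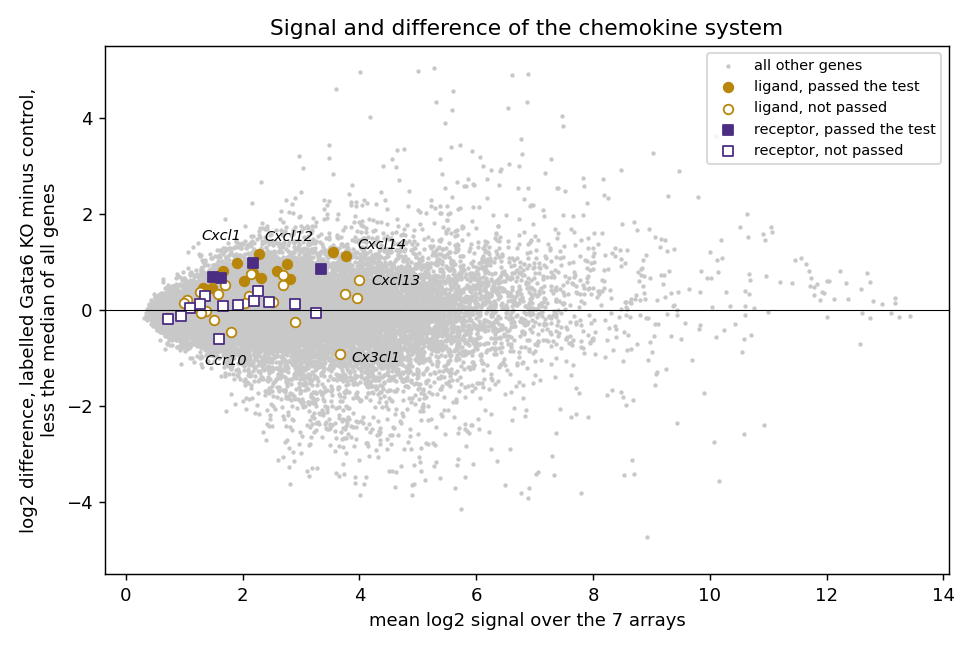
Mean log2 signal over the 7 arrays (horizontal axis) against the log2 difference between KO-labelled arrays and control arrays, less the median of all genes (vertical axis). Grey points are all other genes; filled symbols are members that rose, from 0.45 to 1.22, and open symbols those that did not pass, from -0.92 to 0.74.

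Among the ligands grouped here as attracting monocytes and eosinophils, 4 of 7 rose: Ccl2, Ccl7, Ccl8 and Ccl11. Beside this count and those of the ligand groups below stands the 17.4% of all genes that rose. Ccl2, the main ligand of the monocyte receptor CCR2, measured 3.31, 3.07, 2.95 and 3.65 on the KO-labelled arrays, against 1.94, 2.01 and 2.42 on the control arrays. The groups did not overlap, and the difference was 0.96 (SE 0.23, limma adjusted p = 0.00340), a 1.94-fold higher signal. Ccl7, another ligand of CCR2, measured 3.24, 2.66, 3.27 and 2.90 on the KO-labelled arrays, against 1.97, 1.93 and 2.20 on the control arrays. Again no array of one group reached the other, with a difference of 0.81 (SE 0.22, adjusted p = 0.00578). Ccl8 was counted in this group although in mice it acts on CCR8. It measured 2.40, 2.36, 2.33 and 2.33 on the KO-labelled arrays, against 1.71, 1.47 and 1.60 on the control arrays. It varied little among the KO-labelled arrays, and its difference was 0.60 (SE 0.19, adjusted p = 0.00952; adjusted p = 0.0517 without control array 2). Ccl11, eotaxin, which attracts eosinophils through CCR3, measured 2.82, 2.91, 3.79 and 3.15 on the KO-labelled arrays, against 2.33, 2.44 and 2.29 on the control arrays. Its highest value was on KO-labelled array 3, and the difference of 0.65 (SE 0.25, adjusted p = 0.0272) came to 0.44 (adjusted p = 0.0619) when that array was left out. The Ccl11 call was also lost without any of the 3 control arrays (adjusted p from 0.0680 to 0.0888).

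The other members of this set did not pass. Ccl12, a further CCR2 ligand of mice, had a difference of 0.38 (SE 0.20, adjusted p = 0.0665), and the eosinophil ligands Ccl24 and Ccl26 had differences of -0.02 and 0.16. In the gene order of the mouse genome (RefSeq, assembly GRCm38.p6) Ccl2, Ccl7, Ccl11, Ccl12, Ccl8 and Ccl1 follow one another. Of these 6 neighbours 5 rose, and 2 did so after centring, against 17.4% and 8.43% of all genes. In another run of 5 neighbours, Ccl5, Ccl9, Ccl6, Ccl3 and Ccl4, 1 rose, and 0 did so after centring.

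The receptor CCR2, which brings monocytes out of bone marrow and into tissue, was measured by Ccr2. Its log2 signal was 1.85, 1.84, 2.05 and 1.74 on the KO-labelled arrays, against 0.99, 1.08 and 0.95 on the control arrays. Both groups were tight and the gap between them was wider than either, with a difference of 0.70 (SE 0.17, adjusted p = 0.00280). Ccr2 lay at the low end of the scale, with a mean of 1.50, among the 40% of genes with the lowest mean. Its neighbour Ccr3, the eosinophil receptor, had a difference of -0.19 (SE 0.14, adjusted p = 0.928), and its groups overlapped. The difference of Ccr1, a receptor of monocytes and neutrophils, was 0.04 (SE 0.20, adjusted p = 0.481).

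Ccl6, a CCR1 ligand of rodents, rose. It measured 2.72, 2.80, 2.99 and 2.13 on the KO-labelled arrays, against 1.75, 1.67 and 2.10 on the control arrays. KO-labelled array 4 nearly met control array 3, and the difference was 0.66 (SE 0.24, adjusted p = 0.0224). Leaving out control array 1 or 2, or KO-labelled array 2 or 3, ended the call (adjusted p from 0.0528 to 0.0967). Ccl5, RANTES, a T-cell chemokine, measured 4.25, 2.66, 2.69 and 2.72 on the KO-labelled arrays, against 2.37, 2.32 and 1.86 on the control arrays. KO-labelled array 1 stood far above the others, and the difference of 0.73 (SE 0.34) did not pass (adjusted p = 0.0719). Ccl9, a myeloid ligand of CCR1, measured 4.63, 4.10, 3.83 and 4.02 on the KO-labelled arrays, against 3.86, 3.87 and 3.43 on the control arrays. The groups overlapped, with a difference of 0.26 (SE 0.24, adjusted p = 0.204). Ccl3 and Ccl4, the macrophage inflammatory proteins, are neighbours, with differences of -0.46 (SE 0.24) and 0.53 (SE 0.28), neither past the threshold (adjusted p = 0.397 and adjusted p = 0.0857).

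Of the 5 neutrophil-attracting CXC ligands 2 rose, Cxcl1 and Cxcl2, which act on the neutrophil receptor CXCR2. Cxcl1 measured 2.61, 2.28, 3.22 and 3.28 on the KO-labelled arrays, against 1.42, 1.97 and 1.18 on the control arrays. The groups did not overlap, and the difference was 1.16 (SE 0.28, adjusted p = 0.00383), a 2.23-fold higher signal. Cxcl2 measured 2.43, 2.62, 2.65 and 2.60 on the KO-labelled arrays, against 1.91, 1.53 and 1.45 on the control arrays. The KO-labelled arrays lay close together above all controls, with a difference of 0.78 (SE 0.20, adjusted p = 0.00434). Cxcl3, which also binds CXCR2, measured 0.54, 0.78, 0.51 and 1.00 on the KO-labelled arrays, against 0.57, 0.54 and 1.01 on the control arrays. Its groups lay on top of each other at the low end of the scale (difference -0.17, SE 0.17, adjusted p = 0.999), where a change would be hard to see. Cxcl5 and Cxcl15, known in mice as lungkine, had differences of -0.20 (SE 0.21) and 0.22 (SE 0.17) and did not pass. The receptors Cxcr2 and Cxcr1 had differences of 0.11 (SE 0.21) and 0.16 (SE 0.25), with adjusted p of 0.347 and 0.362.

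Cxcl3, Cxcl15, Cxcl1 and Cxcl2 are neighbours in this order in the gene order. The promoters of the 3 CXCR2 ligands among them are shown because they share a binding word of NF-kappaB although 2 of the genes rose and Cxcl3 did not. They extend from 250 bases before to 50 after the gene's start (RefSeq, GRCm38.p6, all on the plus strand). The capitals mark GGGAATTTCC, the one form of the NF-kappaB consensus that all 3 hold on the strand printed. Only that strand was searched for a shared form. The Cxcl1 promoter lies at chr5:90890995-90891294, that of Cxcl2 at chr5:90903649-90903948 and that of Cxcl3 at chr5:90785851-90786150.
Cxcl1: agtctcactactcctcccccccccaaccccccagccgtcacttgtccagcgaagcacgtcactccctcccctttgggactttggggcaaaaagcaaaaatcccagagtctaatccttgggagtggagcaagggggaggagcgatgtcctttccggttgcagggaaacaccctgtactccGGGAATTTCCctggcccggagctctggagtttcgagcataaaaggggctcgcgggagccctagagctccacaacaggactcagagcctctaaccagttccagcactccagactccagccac
Cxcl2: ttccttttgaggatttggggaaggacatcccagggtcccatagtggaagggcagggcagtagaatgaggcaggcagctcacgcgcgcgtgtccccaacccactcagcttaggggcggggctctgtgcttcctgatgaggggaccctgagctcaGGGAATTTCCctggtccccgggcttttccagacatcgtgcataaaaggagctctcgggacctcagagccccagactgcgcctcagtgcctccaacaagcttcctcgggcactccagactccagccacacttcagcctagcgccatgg
Cxcl3: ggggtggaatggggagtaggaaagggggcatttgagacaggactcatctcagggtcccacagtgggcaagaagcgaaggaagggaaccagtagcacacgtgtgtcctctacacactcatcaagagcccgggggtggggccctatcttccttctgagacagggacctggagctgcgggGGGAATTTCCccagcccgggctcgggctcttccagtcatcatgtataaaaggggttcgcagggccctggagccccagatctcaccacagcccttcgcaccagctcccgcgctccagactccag

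The word begins 71 bases before the start of Cxcl1, 97 before that of Cxcl2 and 73 before that of Cxcl3. On either strand it was found in 4 of 41 promoters of members (9.76%, where 37 of the 51 genes had an entry) and in 0.0883% of all 32851 promoters. Since the word was taken from these promoters, 3 of the 4 are there by choice. The full NF-kappaB consensus, of which GGGAATTTCC is one case, was found on either strand in 26.8% of member promoters and 8.46% of all promoters. It was present in 28.6% of the 14 promoters of members that rose and in 25.9% of the 27 promoters of those that did not. GATAA, the core word that GATA factors bind, occurred on either strand in 26.8% of member promoters, against 25.4% of all promoters. It was present in 42.9% of the 14 promoters of members that rose (6 promoters). In the 27 promoters of those that did not rise, it was present in 18.5% (5 promoters). Some genes have several promoters, and counted by gene these were 6 of 13 and 5 of 24. Ccl2, Ccl7, Ccl11 and Cxcl11, which rose, had no promoter entry. The difference was not tested. Matches describe these windows only and do not show that a factor binds.

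The homeostatic ligands Cxcl12 and Cxcl14 rose. Cxcl12, SDF-1, which stromal cells make and which retains leukocytes and progenitors through CXCR4, measured 4.79, 3.85, 3.79 and 4.10 on the KO-labelled arrays, against 2.45, 2.75 and 3.05 on the control arrays. The groups were well apart, and the difference of 1.22 (SE 0.26, adjusted p = 0.00203), a 2.33-fold higher signal, was the largest among the members. Cxcl14, made by epithelium and fibroblasts, measured 4.64, 4.09, 4.69 and 3.88 on the KO-labelled arrays, against 2.86, 3.10 and 3.17 on the control arrays. These groups did not overlap either, with a difference of 1.12 (SE 0.24, adjusted p = 0.00179).

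Cxcl13, which guides B cells into follicles through CXCR5, measured 5.34, 4.79, 3.61 and 3.57 on the KO-labelled arrays, against 3.33, 4.19 and 3.06 on the control arrays. Its values were spread widely in both groups and overlapped, and the difference of 0.63 (SE 0.40) did not pass (adjusted p = 0.162). The receptor gene Cxcr5 had a difference of 0.20 (SE 0.24, adjusted p = 0.285). Cxcl17, a mucosal ligand, had a difference of 0.18 (SE 0.19, adjusted p = 0.213).

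Cxcr4, the receptor of CXCL12, measured 4.01, 4.11, 2.74 and 4.25 on the KO-labelled arrays, against 2.85, 2.76 and 2.64 on the control arrays. KO-labelled array 3 lay within the control range while the other 3 lay far above it. The difference was 0.86 (SE 0.31, adjusted p = 0.0284), and 1.21 (adjusted p = 7.37e-04) without KO-labelled array 3. Leaving out any 1 of the other 6 arrays ended the call (adjusted p from 0.0611 to 0.0896). KO-labelled array 3 was also the lowest for Gcg, at 6.85, and for the mean of the islet endocrine list, at 4.81, against 5.96 to 6.48 on the other KO-labelled arrays. The part of this in the Cxcr4 value was not tested.

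Of the interferon-induced ligands of CXCR3, which attract activated T cells and NK cells, 1 of 3 rose. Cxcl11 measured 1.49, 1.53, 1.66 and 1.69 on the KO-labelled arrays, against 0.88, 0.75 and 1.25 on the control arrays. The groups did not overlap (difference 0.47, SE 0.18, adjusted p = 0.0187), and the call was lost without control array 1 or 2 (adjusted p = 0.0820 and adjusted p = 0.101). Cxcl9 measured 3.07, 1.67, 1.09 and 2.14 on the KO-labelled arrays, against 1.28, 1.04 and 1.59 on the control arrays. KO-labelled array 1 was highest and the groups overlapped, with a difference of 0.52 (SE 0.35, adjusted p = 0.174). Cxcl10 had a difference of 0.14 (SE 0.22, adjusted p = 0.343). The receptor gene Cxcr3 measured 3.39, 3.05, 3.10 and 2.57 on the KO-labelled arrays, against 2.38, 3.04 and 2.76 on the control arrays. Its groups overlapped, with a difference of 0.13 (SE 0.25, adjusted p = 0.399).

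Of the 5 ligands directed at dendritic cells and T cells 3 rose. Xcl1, lymphotactin, made by activated T cells and NK cells, measured 2.73, 1.97, 2.43 and 2.47 on the KO-labelled arrays, against 1.21, 1.66 and 0.90 on the control arrays. Its receptor gene Xcr1, which marks cross-presenting dendritic cells, measured 2.62, 2.52, 2.57 and 2.98 on the KO-labelled arrays, against 1.46, 1.41 and 1.69 on the control arrays. Neither gene had overlapping groups, and the differences were 0.98 (SE 0.24, adjusted p = 0.00359) for Xcl1 and 0.99 (SE 0.21, adjusted p = 0.00124) for Xcr1, the smallest adjusted p among the members. The neighbours of Xcr1, Cxcr6 and Ccr1, had differences of -0.12 (SE 0.15) and 0.04 (SE 0.20).

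Ccl17, a dendritic-cell product that attracts T cells through CCR4, measured 2.44, 1.87, 1.71 and 2.35 on the KO-labelled arrays, against 0.94, 1.25 and 1.12 on the control arrays. All KO-labelled arrays were above all controls, with a difference of 0.82 (SE 0.22, adjusted p = 0.00513). Ccl22, the other CCR4 ligand, measured 2.91, 2.14, 1.67 and 3.45 on the KO-labelled arrays, against 1.40, 1.74 and 1.76 on the control arrays. It varied more, with KO-labelled array 3 inside the control range, and its difference of 0.74 (SE 0.34) did not pass (adjusted p = 0.0664). Ccl1, a CCR8 ligand, measured 1.35, 1.93, 2.00 and 1.68 on the KO-labelled arrays, against 1.13, 1.06 and 1.16 on the control arrays. Its groups did not overlap (difference 0.45, SE 0.19, adjusted p = 0.0321), but the call was lost without any 1 of the control arrays or KO-labelled arrays 2 and 3 (adjusted p from 0.0739 to 0.105). The receptor genes Ccr4 and Ccr8 had differences of 0.12 (SE 0.18) and 0.08 (SE 0.23), and neither passed.

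Ccr6, the receptor of B cells and of T-helper 17 cells, measured 2.16, 1.89, 2.15 and 1.73 on the KO-labelled arrays, against 0.87, 1.36 and 1.22 on the control arrays. The groups did not overlap, with a difference of 0.66 (SE 0.20, adjusted p = 0.00863; adjusted p = 0.0652 without control array 1). Its ligand gene Ccl20 had a difference of -0.07 (SE 0.22, adjusted p = 0.785). The lymph node homing receptor gene Ccr7 measured 3.34, 2.90, 1.68 and 2.10 on the KO-labelled arrays, against 2.30, 2.12 and 1.40 on the control arrays. These values overlapped, and the difference of 0.40 (SE 0.35) did not pass (adjusted p = 0.262).

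The transmembrane ligands did not rise. Cx3cl1, fractalkine, which islet and endothelial cells make and which acts on macrophages, measured 2.79, 3.25, 3.34 and 4.01 on the KO-labelled arrays, against 4.35, 4.02 and 3.95 on the control arrays. It had the lowest difference of the members, -0.92 (SE 0.27). Only KO-labelled array 4 reached the control range. The adjusted p of 0.0522 missed the threshold, and it was 0.0139 after centring and 0.00784 without KO-labelled array 4. Cx3cl1 stands between Ccl22 and Ccl17 in the gene order, and the differences of these 3 neighbours ran from -0.92 to 0.82. Cx3cr1, the fractalkine receptor of macrophages, measured 3.77, 2.98, 3.15 and 3.35 on the KO-labelled arrays, against 3.47, 2.85 and 3.27 on the control arrays. The groups overlapped fully, and the difference was -0.05 (SE 0.24, 95% interval from -0.57 to 0.47). Cxcl16, a scavenger receptor and chemokine, measured 4.88, 3.83, 3.99 and 3.20 on the KO-labelled arrays, against 3.71, 3.09 and 3.59 on the control arrays. KO-labelled array 1 was highest and array 4 lay among the controls. Cxcl16 had a difference of 0.34 (SE 0.32, adjusted p = 0.270), and its receptor gene Cxcr6 one of -0.12 (SE 0.15).

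The epithelial ligands Ccl25, Ccl27a and Ccl28, which act in gut and skin, had differences of 0.29 (SE 0.19), 0.33 (SE 0.19) and -0.25 (SE 0.25), and none passed. Ccl28 measured 2.57, 2.96, 3.30 and 2.61 on the KO-labelled arrays, against 3.35, 2.94 and 2.55 on the control arrays, so that its groups covered nearly the same range. Further probe sets that name Ccl27a are shared with near-identical genes, so its value is uncertain. The receptors of these ligands were measured by Ccr9 (difference 0.30, SE 0.17, adjusted p = 0.0569) and Ccr10 (difference -0.61, SE 0.22, adjusted p = 0.161). Ccr10 measured 1.61, 1.42, 1.02 and 1.54 on the KO-labelled arrays, against 2.16, 1.94 and 1.43 on the control arrays, and it was called lower after centring (adjusted p = 0.0458).

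Set beside each other, ligand and receptor both rose for Ccl2 and Ccl7 with Ccr2, for Xcl1 with Xcr1 and for Cxcl12 with Cxcr4. For Cxcl1 and Cxcl2 with Cxcr2, Ccl17 with Ccr4, Ccl11 with Ccr3, Ccl8 and Ccl1 with Ccr8, Ccl6 with Ccr1 and Cxcl11 with Cxcr3 the ligand passed and the receptor did not. For Ccr6 with Ccl20 and for Ccr2 with Ccl12 the receptor passed and the ligand did not. Whether ligands and receptors of a pair differ from each other was not tested.

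**Figure D3:**
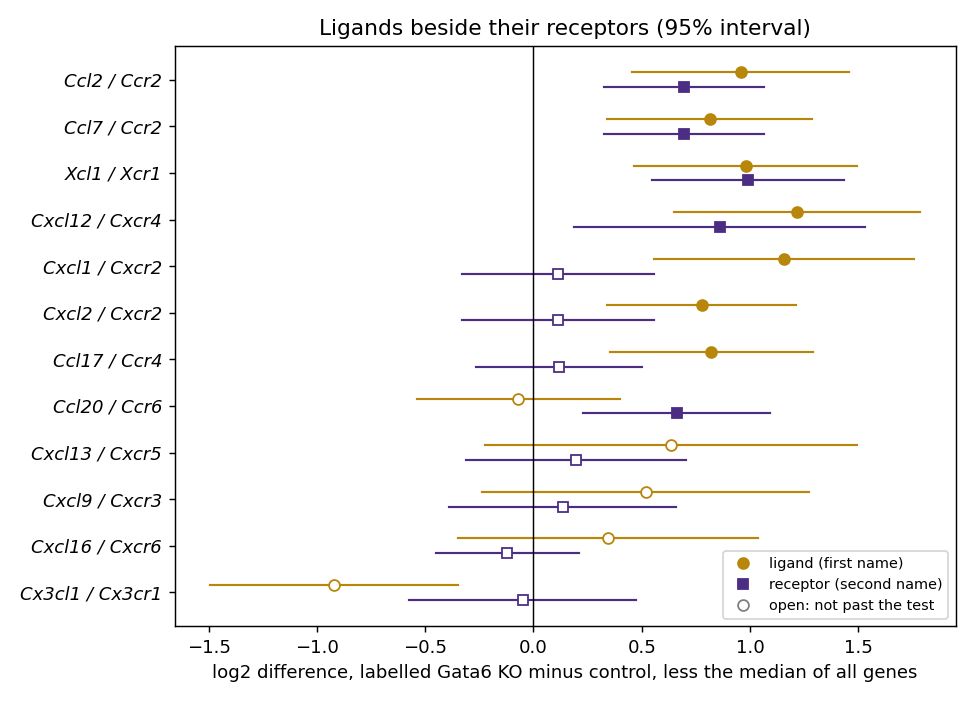
Log2 difference between KO-labelled arrays and control arrays, less the median of all genes, for ligands (circles) and their receptors (squares), with 95% intervals. Filled symbols passed the test of the unsubtracted difference. A selection of pairs is drawn. Both members are filled in the top 4 rows, and Cx3cl1, at -0.92, lies lowest without passing, although its interval around the subtracted difference leaves out 0.

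Other genes of the chemokine system, its receptor signalling and its inducers with the NF-kappaB pathway included genes that rose and genes that fell. Among 10 measured genes of atypical receptors, further ligands and processing enzymes 2 rose and 1 fell. Ackr2, a decoy receptor that removes inflammatory CC chemokines, averaged 4.09 ± 0.31 (SD, n = 4) on the KO-labelled arrays and 2.80 ± 0.23 (SD, n = 3) on the control arrays, a difference of 1.12 (SE 0.23, adjusted p = 0.00119). Ackr4, a scavenger of CCL19 and CCL21, had a difference of 0.40 (SE 0.19, adjusted p = 0.0436). Dpp4, a peptidase that trims and inactivates several chemokines, fell by 1.09 (SE 0.28, adjusted p = 0.0267). Of 36 genes that carry receptor signals 8 rose and 8 fell, with a median of 0.11. Rac2, the GTPase of leukocyte migration, rose by 1.51 (SE 0.28, adjusted p = 7.25e-04), while Prkcb and the receptor kinase gene Grk5 fell by 2.40 (SE 0.28, adjusted p = 9.14e-05) and 1.42 (SE 0.20, adjusted p = 5.58e-04). Rgs2, a brake on G protein signalling, fell by 1.84 (SE 0.19, adjusted p = 4.24e-05).

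Of 34 genes of chemokine-inducing cytokines, their receptors and the NF-kappaB pathway, inhibitors of that pathway included, 5 rose (14.7%) and 2 fell. Relb, the NF-kappaB subunit of the non-canonical pathway, averaged 3.78 ± 0.27 (SD, n = 4) on the KO-labelled arrays and 2.23 ± 0.11 (SD, n = 3) on the control arrays, a difference of 1.38 (SE 0.22, adjusted p = 2.07e-04). The cytokine gene Ltb and the TNF receptor gene Tnfrsf1b had differences of 1.48 (SE 0.24, adjusted p = 2.70e-04) and 0.88 (SE 0.22, adjusted p = 0.00416). The interleukin-1 receptor gene Il1r1 averaged 5.08 ± 1.09 (SD, n = 4) on the KO-labelled arrays and 7.81 ± 0.25 (SD, n = 3) on the control arrays, a difference of -2.90 (SE 0.43, adjusted p = 5.09e-04). These 3 lists were read out in the same fit, and a background of 17.4% higher and 7.36% lower applies to them too.

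Some marker lists of leukocytes held more genes that rose than the 17.4% of all genes, and others did not. Of 12 pan-leukocyte genes 6 rose and 0 fell, and the list mean ran from 3.33 to 4.13 on the KO-labelled arrays and from 2.68 to 2.81 on the control arrays. List means are signals from which no median was subtracted. The mean of all genes was separated by group too, at 2.78 to 2.87 on the KO-labelled arrays and 2.65 to 2.66 on the control arrays. The rises numbered 6 of 13 for T cells, 5 of 10 for B cells, 7 of 14 for macrophages, 3 of 9 for NK cells and 1 of 9 for dendritic cells, and none of these lists had a gene that fell. The share of dendritic-cell genes that rose, 11.1%, was below the share of all genes. The T-cell list mean ran from 2.37 to 2.82 on the KO-labelled arrays and from 1.70 to 1.85 on the control arrays, and the B-cell list mean from 2.83 to 3.21 on the KO-labelled arrays and from 1.99 to 2.28 on the control arrays. The macrophage list mean ran from 2.78 to 3.73 on the KO-labelled arrays and from 2.30 to 2.50 on the control arrays. Ptprc, the common leukocyte antigen CD45, measured 3.84, 2.18, 2.07 and 1.91 on the KO-labelled arrays, against 2.08, 1.40 and 1.59 on the control arrays, and did not pass (adjusted p = 0.140). Neutrophil markers were low in both groups: 2 of 13 rose (15.4%, also below the share of all genes) and 1 fell, with a list mean from 1.40 to 1.77 on the KO-labelled arrays and from 1.50 to 1.54 on the control arrays.

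Among stromal markers 8 of 13 mesenchymal genes rose and 0 fell, with a list mean from 3.67 to 5.33 on the KO-labelled arrays and from 3.26 to 4.06 on the control arrays. Of 12 endothelial genes 2 rose and 3 fell, with a list mean from 3.78 to 4.37 on the KO-labelled arrays and from 4.09 to 4.45 on the control arrays. Lymphatic endothelial genes had 1 rise and 1 fall among 6. Ductal genes had 4 rises and 1 fall among 9, and adipocyte genes 2 rises among 7. The share of genes that rose was 16.7% in each of the endothelial and lymphatic endothelial lists, close to the 17.4% of all genes. The falls, 3 of 12 endothelial and 1 of 6 lymphatic endothelial genes, stand beside 7.36% of all genes. After centring each array, 5 of the 12 endothelial genes were lower, against 12.5% of all genes. No marker can be said to be at 0 on this scale. KO-labelled array 1 had the highest pan-leukocyte, macrophage, T-cell, B-cell and mesenchymal means and the highest value of Ccl5, Ccr7, Cxcl9, Cxcl12 and Cxcl13 among all arrays. Among the KO-labelled arrays it also had the lowest NK-cell and neutrophil means, at 1.60 and 1.40. It was the highest KO-labelled array for 16 of the 51 members and the lowest for 14. For the 17 that rose these counts were 5 and 4. Without KO-labelled array 1, 16 members rose, all among the 17, and 3628 genes in all. The part of these cell types in the chemokine differences was not tested.

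**Figure D4:**
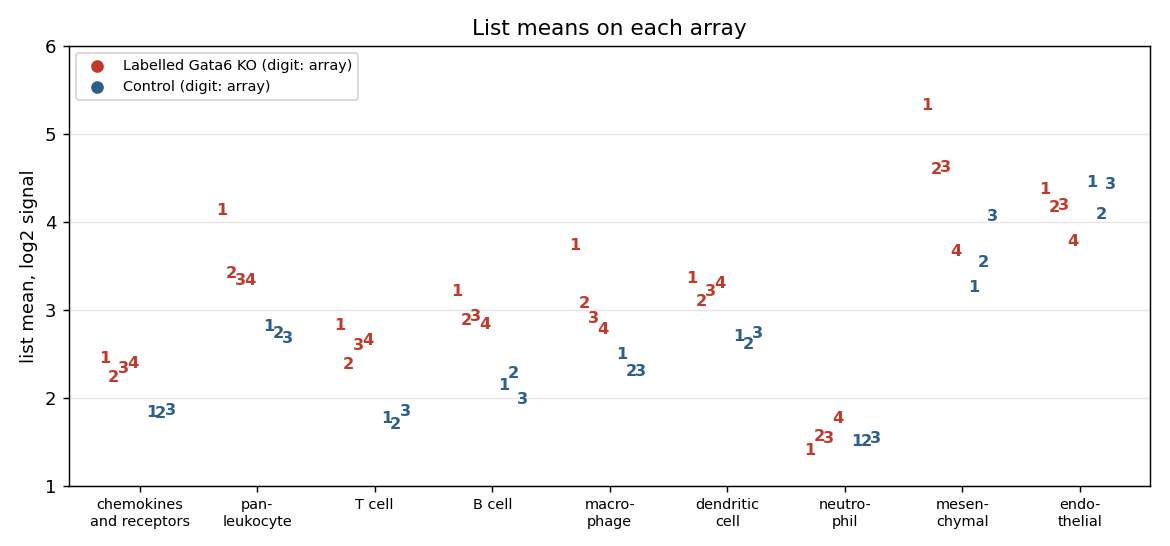
Mean log2 signal of the chemokine genes and of 8 marker lists on each array, where each digit is 1 array (red, left: KO-labelled; blue, right: control). The mean of the chemokine genes ran from 2.23 to 2.45 on the KO-labelled arrays and from 1.82 to 1.86 on the control arrays. The leukocyte lists other than neutrophils were also separated by group, as was the mean of all genes (not drawn). That mean ran from 2.78 to 2.87 on the KO-labelled arrays and from 2.65 to 2.66 on the control arrays.

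The arrays differed in Xist, a transcript of female cells: 3 KO-labelled arrays and 2 control arrays had a high signal and 1 array of each group a low one. On the 5 arrays with high Xist 11 members rose, and 2231 genes in all, against 3853 genes on all 7 arrays. Of the 17 members 9 were among these 11, and Cxcl1, Cxcl2, Xcl1, Ccl1, Ccl6, Ccl8, Ccl11 and Ccr6 were not. Ccl2, Ccl7, Ccl17, Cxcl12, Cxcl14, Ccr2 and Xcr1 passed the same threshold in each of 17 alternative fits, which include leaving out each array, except that the filter on low means removed Ccl17 and Ccr2 untested.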

How the data were processed

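Gene expression in 7 pools of isolated islets was measured on Affymetrix whole-transcript arrays. The deposited values are log2 signals that the authors normalized with RMA; Transcriptome Analysis Console is named as well, per the submitters' processing notes. Base 2 follows from RMA. Promoters and gene order are those of RefSeq (GRCm38.p6). Medians of the 41345 probe sets ran from 1.89 to 2.11 on the KO-labelled arrays and from 1.72 to 1.78 on the control arrays. The number of arrays limits the precision.

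Names came from the platform annotation. Only the 23521 probe sets with 1 symbol were used, and for a gene with several the one with the highest mean, which gave 22180 genes. The test was limma (version 3.58.1, R 4.3.3; lmFit, eBayes with trend, two-sided, Benjamini-Hochberg adjusted p under 0.05), without covariates. Members and lists were chosen with earlier results of these data known. All members could be named, with values per array for those past the threshold and the 10 with the highest mean; those of Ccl5, Ccl22, Ccr7, Ccr10, Cxcl3 and Cxcl9 were added after they were seen. Of other genes, a fixed set of tissue checks, up to 4 with the smallest p of each pathway list and the 2 most abundant of each marker list could be named. With simulated data of this comparison (22180 genes) 36% of log2 changes of 1 and 92% of changes of 2 were recovered. Replicates are pools of animals. Alternatives covered scaling, filters, probe sets, variance models, thresholds, a replicate block, Xist and leaving out each array. Figures were drawn with matplotlib 3.10.9.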

Additional observations from a re-analysis of the deposited data

Results flagged for a closer look

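In the 4 KO-labelled arrays, 1 array stood apart from the rest for 2 of the 51 members, by Dixon's test of the gap to the nearest array. Ccl5 had a log2 signal of 4.25 on KO-labelled array 1, against 2.66 to 2.72 on the other 3. Cxcr4 had a log2 signal of 2.74 on KO-labelled array 3, against 4.01 to 4.25 on the other 3. Chance alone flags about 1 in 20 such groups, and 51 groups were tested.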

How the results depend on the processing

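Centring each array on its median left 10 members higher and 2 lower (ligands 8 and 1, receptors 2 and 1), and changed the counts over all genes to 1870 higher and 2769 lower. It left 3 inducer and NF-kappaB genes (named inducers below, NF-kappaB inhibitors included), 1 other chemokine-system gene and 3 signalling genes higher. Quantile normalization gave 11 members higher and 1 lower (ligands 8 and 1), 2440 genes higher and 2477 lower, 3 inducers higher and 1 other chemokine-system gene higher. Without the 40% of genes with the lowest mean, 11 members were higher (receptors 2) and 1 ligand was lower, 1 other chemokine-system gene was higher, and the median member difference was 0.56. That filter removed Ccl1, Ccl17, Ccr2, Ccr6, Cxcl11 and Xcl1 untested. Cx3cl1 was the 1 member, a ligand, called lower with eBayes without trend, with robust eBayes, with array weights and with the replicate block. Array weights gave 10 inducers higher, and eBayes without trend 1 other chemokine-system gene higher.

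On the arrays with high Xist alone, 11 members were higher (ligands 8), as were 2231 genes in all, 1 other chemokine-system gene (0 lower) and 5 signalling genes (5 lower). At an adjusted p under 0.01, 1855 genes were higher and 942 lower, and at 2-fold or more, counted on the difference before the median was subtracted, 7 members and 1482 genes were higher and 880 genes lower. The replicate numbers were not taken as pairs. The deviations of same-numbered arrays correlated at 0.10, 0.0043 and 0.11, and those of differently numbered arrays at -0.14 to 0.073. The array with low Xist was number 3 in both groups. Whether the numbers mark pairs was not tested. With the replicate block 22 members were higher and 1 lower, with the 17 kept and Ccl4, Ccl5, Ccr7, Cxcl13 and Cxcl16 added, 9 inducers were higher and 1 lower, and 3975 genes were higher and 1946 lower.

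Leaving out each array in turn gave 11 to 17 members higher and 0 to 1 lower, 8 to 14 ligands higher and 0 to 1 lower, and 2 to 4 receptors higher. Over all genes it gave 2246 to 3812 higher and 1019 to 1801 lower. Inducers came to 3 to 7 higher and 1 to 2 lower, other chemokine-system genes to 1 to 2 higher and 0 to 1 lower, and signalling genes to 4 to 10 higher. The difference of Cx3cr1, which was not called, ran from -0.22 to 0.093 over these fits and was above 0 without control array 1 and without KO-labelled array 2 or 3, and on the high-Xist arrays (0.027). That of Cxcr3, also not called, ran from -0.031 to 0.31. Apart from settings that test fewer genes or arrays, the cause of these shifts was not tested. Low signals limit what can be seen for most members.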
